A study of Mus musculus with 12 samples.

Results

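The G2 and mitosis genes examined here are 45 genes chosen by symbol for their textbook roles between the end of DNA replication and cell division, out of 24421 symbols in the count table. All 45 were found, and all 45 were among the 11468 genes that passed the filter on low counts. The libraries held RNA of bone marrow-derived macrophages (BMDMs), which are macrophages grown from marrow cells with the growth factor M-CSF (100 ng/mL, 5 days, fresh medium on day 3). The marrow came from 3 wild-type C57BL/6 mice, named A, B and C in the labels, and each mouse gave 1 library to each of 4 groups (12 libraries). With Ova the groups were DMSO Ova and iBET Ova, with the immune complex DMSO IC and iBET IC, each exposed for 4 hours. iBET is I-BET151 at 5.0 µM, an inhibitor of the BET bromodomain proteins, which bind acetylated histones and promote transcription. DMSO is its solvent, given in the labels as 5%. Ova is ovalbumin alone, and IC is ovalbumin coated with rabbit IgG, an immune complex that cross-links Fc gamma receptors. The labels and the methods differ on whether the drug came with the stimulus or shortly before it. In bulk RNA, fewer dividing cells and less of a transcript per dividing cell cannot be told apart.

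Macrophages that grow in M-CSF can still divide, and dividing cells switch on a large block of genes late in the cycle. Cyclin A and cyclin B with the kinase Cdk1 drive entry into mitosis, the spindle and its motors align the chromosomes, the checkpoint holds the cell until every kinetochore is attached, and the anaphase-promoting complex then allows the sister chromatids to part before the cell is cleaved. Many promoters of such genes carry a short element called the cell cycle genes homology region (CHR), bound by MuvB complexes, together with CCAAT boxes bound by NF-Y.

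The promoters of these genes were searched for both elements, which the choice by symbol did not use. RefSeq windows on GRCm38.p6 were found for 36 of the 45 genes, and the 250 bases before each start site were searched on both strands, with matches of different motifs allowed to overlap. The CHR, searched as TTTGAA or TTCGAA (the latter reads the same on both strands), was present in 15 of the 36 genes (41.7%), against 14.5% of the 8616 tested genes that have a window and 19.6% of all genes in the RefSeq table. CCAAT was present in 28 (77.8%), against 41.1% and 37.5%. Both were present in 14 (38.9%), against 5.91% and 7.00%. These shares are descriptions, and a match is a run of letters, not a binding site.

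Shown next are the 120 bases before the start site, 5′ to 3′ on the gene's strand, with CHR and CCAAT matches of either strand in capitals. The first 6 belong to genes whose values in every library are given later. Smc2, Cenpe, Racgap1, Plk1, Nuf2 and Cenpa, with values also given later, have windows without a CHR in this stretch and are not shown. Bub1b has no CHR in this stretch either but is shown, so the choice did not follow the CHR alone. Over the 36 genes, 11 hold a CHR in this stretch, a smaller share than among the stretches shown. Cdk1, Ube2c and Ccnb2, and the securin gene Pttg1, were chosen after their values were seen. Prc1 has 2 RefSeq windows, and the one with a CHR in this stretch is shown.
Mki67 (chr7:135716380-135716499, minus strand): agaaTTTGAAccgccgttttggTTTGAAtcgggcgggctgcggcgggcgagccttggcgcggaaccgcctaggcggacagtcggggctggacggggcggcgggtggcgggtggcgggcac
Top2a (chr11:99024190-99024309, minus strand): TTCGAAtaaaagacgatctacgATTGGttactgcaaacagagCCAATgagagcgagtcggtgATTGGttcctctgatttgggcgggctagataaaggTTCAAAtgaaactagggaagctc
Kif11 (chr19:37376262-37376381, plus strand): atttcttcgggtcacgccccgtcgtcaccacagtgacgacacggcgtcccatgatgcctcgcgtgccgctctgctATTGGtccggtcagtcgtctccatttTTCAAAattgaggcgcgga
Prc1 (chr7:80294356-80294475, plus strand): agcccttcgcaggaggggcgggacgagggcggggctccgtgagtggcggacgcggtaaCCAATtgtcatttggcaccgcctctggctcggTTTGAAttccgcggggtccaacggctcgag
Espl1 (chr15:102296173-102296292, plus strand): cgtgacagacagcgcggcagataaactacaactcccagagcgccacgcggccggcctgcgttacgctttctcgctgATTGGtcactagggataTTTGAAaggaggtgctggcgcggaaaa
Bub1b (chr2:118598091-118598210, plus strand): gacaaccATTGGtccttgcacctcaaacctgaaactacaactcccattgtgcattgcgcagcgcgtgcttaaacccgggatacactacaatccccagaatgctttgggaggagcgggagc
Cdk1 (chr10:69352913-69353032, minus strand): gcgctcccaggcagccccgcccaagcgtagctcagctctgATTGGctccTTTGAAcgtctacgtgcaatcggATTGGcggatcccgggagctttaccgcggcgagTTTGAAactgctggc
Ube2c (chr2:164769809-164769928, plus strand): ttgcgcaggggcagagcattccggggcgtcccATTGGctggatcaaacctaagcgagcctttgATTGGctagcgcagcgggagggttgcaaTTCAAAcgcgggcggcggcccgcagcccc
Ccnb2 (chr9:70421555-70421674, minus strand): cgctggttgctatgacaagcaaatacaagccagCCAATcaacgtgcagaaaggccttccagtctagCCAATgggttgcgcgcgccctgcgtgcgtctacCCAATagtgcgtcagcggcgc
Pttg1 (chr11:43425982-43426101, minus strand): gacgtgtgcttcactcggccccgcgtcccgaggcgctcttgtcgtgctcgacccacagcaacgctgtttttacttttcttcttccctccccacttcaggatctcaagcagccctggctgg
In 6 of the 36 genes (16.7%: Top2a, Kif11, Prc1, Espl1, Cdk1 and Ube2c) the CHR nearest the start site begins between 15 and 30 bases before it and the nearest CCAAT box within the stretch lies further out, against 0.290% of tested genes and 0.233% of all genes. This spacing was described after the sequences were seen, and the other 5 genes with a CHR in this stretch do not have it. In Kif11, the gene of the motor that pushes the spindle poles apart, the CHR begins 19 bases and the CCAAT box 45 bases before the start site. In Espl1, the separase gene, these distances are 27 and 44 bases. The Ccnb2 stretch holds 3 CCAAT boxes and no CHR in these letters, and the Pttg1 stretch holds neither.

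All 45 genes had counts in all 12 libraries, at different levels. Per kilobase of exon, the highest mean levels over the libraries were those of the condensin subunit Smc4 (23.5 CPM per kb, where CPM is the TMM-normalized count scaled to library size), of Mki67 (22.8 CPM per kb), which encodes the Ki-67 protein that coats mitotic chromosomes, and of Top2a (20.9 CPM per kb), the topoisomerase that untangles sister DNA. The lowest were those of the checkpoint gene Mad2l1 (1.26 CPM per kb), of Espl1 (1.34 CPM per kb) and of the checkpoint kinase Ttk (1.55 CPM per kb). Exon length was the union of all annotated exons of a gene, 8.39 kb for Mad2l1. By CPM without length, Mad2l1 (10.6) lay above Spc24, Ube2c, Ttk and Pttg1 (4.35, 5.00, 7.63 and 9.54). The libraries held 7.55 M to 17.4 M counts. The mouse A library of DMSO Ova stood apart: Rn45s, the ribosomal RNA precursor, took 77.4% of its counts against 1.41% to 7.83% elsewhere, which left 1.77 M counts on other genes and 8 to 483 counts per mitotic gene. Where leaving it out of the fit with mouse as a term changed the call of a gene, the value without it is given beside that gene or its count. For 13 of the 45 genes an exon overlaps another annotated gene, in 10 of them on the opposite strand (Ccna2, Plk1, Cdca8, Kif20a, Kif4, Cdc20, Ube2c, Prc1, Nusap1 and Ncapg) and in Top2a, Foxm1 and Ncapd2 on the same strand. The use of strand in the counting was not stated, so these values are uncertain.

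**Figure D1:**
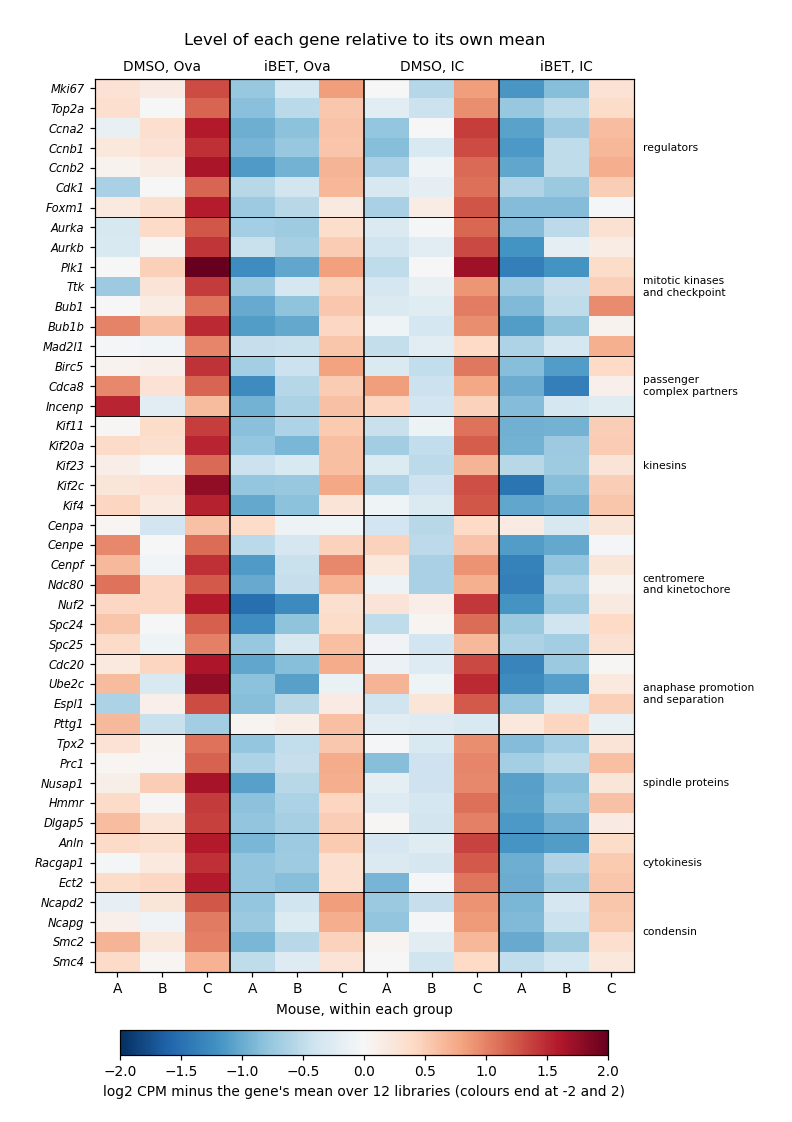
Level of each of the 45 genes in each of the 12 libraries as log2 CPM minus the gene's own mean (colour, with the scale ending at 2 on either side of 0), with genes in rows by role and libraries in columns by group and mouse. The columns of mouse C are the warmest of each group for 41 of the 45 genes, and within a mouse the iBET columns are cooler than the DMSO columns for most genes.

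The libraries of the 3 mice differed in these genes. The labels do not separate an animal from its culture or handling, so these cannot be told apart in what is called a difference between mice here. In every group mouse C had more of these transcripts than mouse A or mouse B. The summed level of the 45 genes in mice A, B and C was 1954, 1667 and 3585 CPM in DMSO Ova and 895, 1066 and 2258 CPM in iBET Ova. It was 1362, 1189 and 2856 CPM in DMSO IC and 824, 961 and 1919.7 CPM in iBET IC. Mouse C exceeded mouse A by 1.83-fold to 2.52-fold and mouse B by 2.00-fold to 2.40-fold across the groups, while the ratio of mouse B to mouse A lay between 0.853 and 1.19. The group means were 2402 ± 1034 in DMSO Ova, 1406 ± 742 in iBET Ova, 1802 ± 917 in DMSO IC and 1235 ± 597 CPM in iBET IC (SD, n = 3 mice). The ranges of all 4 groups overlapped.

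**Figure D2:**
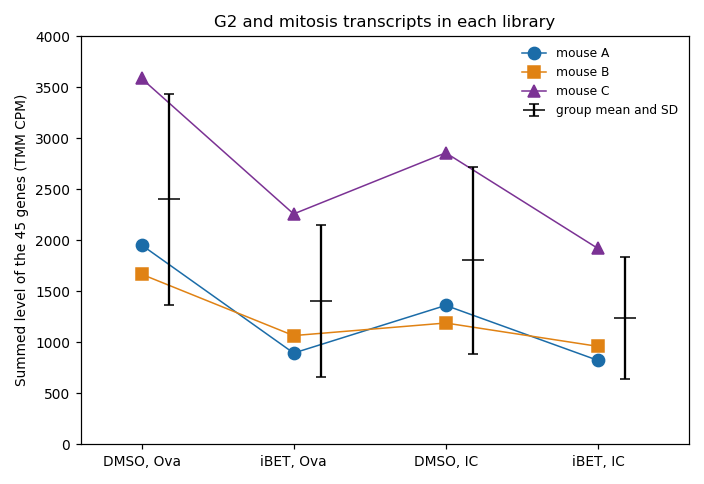
Summed level of the 45 G2 and mitosis genes (TMM CPM, vertical axis) in each library of the 4 groups, with a symbol and line for each mouse and black bars for the group mean and SD (n = 3). Mouse C lies above mice A and B in every group, between 1919.7 and 3585 CPM, and each mouse is lower with iBET than with DMSO at the same stimulus.

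A term for mouse, fitted beside the group in edgeR, was called at an adjusted p under 0.05 for 41 of the 45 genes, against 5.55% of all genes tested. The 4 libraries of a mouse share its marrow, so this test does not measure the spread among animals at large. Mouse C was called higher than mouse A for 40 genes (background 4.53%) and higher than mouse B for 41 (background 2.75%), whereas mice A and B were called different for 0 (background 0.0349%). The median log2 difference over the 45 genes was 1.33 for C minus A, 1.17 for C minus B and 0.14 for B minus A. Over all genes tested the medians of C minus A and C minus B were -0.02 and -0.01. Mouse C was the highest mouse in all 4 groups for 41 of the 45 genes, against 7.25% of all genes tested. The number of genes called for mouse was between 38 and 43 when each library was left out in turn.

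All 7 genes of the group of cyclin genes, Cdk1, Foxm1, Mki67 and Top2a were called for mouse. So were all 7 kinase and checkpoint genes, 5 kinesins, 5 spindle genes, 3 cytokinesis genes and 4 condensin genes. Plk1, the kinase that promotes mitotic entry and spindle assembly, had the widest gap: its means over the 4 groups were 7.11, 9.37 and 29.2 CPM in mice A, B and C, a log2 difference of 2.00 between C and A (SE 0.12, edgeR adjusted p = 1.83e-06) and of 1.65 between C and B. For Mki67 the mouse means were 164, 158 and 366 CPM (C minus A 1.21, SE 0.14, edgeR adjusted p = 0.000198). The cyclin genes Ccna2, Ccnb1 and Ccnb2 had C minus A log2 differences of 1.78, 1.70 and 1.76. The genes not called were Pttg1, Cenpa (the centromeric histone H3 variant), and Incenp and Cdca8, which encode subunits of the chromosomal passenger complex. Pttg1 had mouse means of 10.6, 9.22 and 8.80 CPM. Cenpa, Incenp and Cdca8 each had mouse C highest in 3 of the 4 groups.

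**Figure D3:**
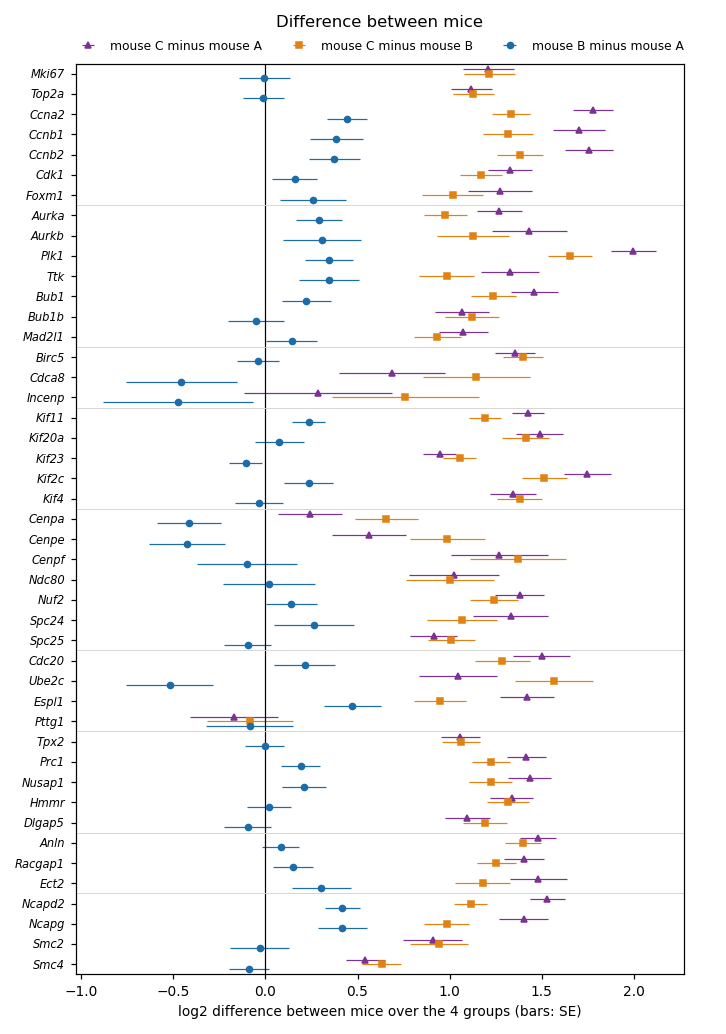
log2 difference between mice over the 4 groups (horizontal axis, bars are SE) for each of the 45 genes, with a symbol each for C minus A, C minus B and B minus A. The medians are 1.33, 1.17 and 0.14, and Pttg1 is the exception, with C minus A at -0.17 and C minus B at -0.08.

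Markers of another cell type also differed between the mice. The list for neutrophils and their precursors had 8 of its 9 genes in the table and 5 tested, and all 5 were called for mouse. Its summed level was 9.76 to 17.4 CPM in mouse A, 23.5 to 48.6 CPM in mouse B and 44.8 to 56.4 CPM in mouse C. Over the 4 groups the ranges of mice B and C overlapped and mouse A lay below both. Within each group mouse C was the highest for these markers, as it was for the summed level of the 45 genes. That summed level spanned 824 to 1954 CPM in mouse A, 961 to 1667 CPM in mouse B and 1919.7 to 3585 CPM in mouse C over the 4 groups. The part of the neutrophil markers in the difference between mice was not tested. The 8 macrophage markers in the table summed to 6325 to 8484 CPM in mouse A, 7237 to 8454 CPM in mouse B and 6569 to 7741 CPM in mouse C, so markers of the labelled cell type were abundant in all libraries. Of these 8, Fcgr1 and Mertk were called for mouse, and both were lowest in mouse C in all 4 groups, a shift whose part in the difference between mice was not tested. The 4 blood progenitor markers summed to 0.514 to 3.90 CPM. Erythroid markers reached at most 0.514 CPM with Hbb-b1, Hbb-bs and Hba-a1 at 0, lymphoid markers at most 1.33 CPM with Nkg7 at 0, dendritic cell markers at most 1.23 CPM and stromal markers at most 2.57 CPM. The 4 mast cell and basophil markers were at 0 throughout.

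Within each mouse, iBET lowered the level of most of these genes, with and without the immune complex. In Ova the summed level with iBET was 54.2%, 36.1% and 37.0% lower than with DMSO in mice A, B and C. In IC it was 39.5%, 19.2% and 32.8% lower. Of the 45 genes, 42 were lower with iBET in 3 of 3 mice in Ova, against 27.0% of all genes tested, and 36 were lower in 3 of 3 mice in IC, against 33.0%. In Ova 0 were higher in 3 of 3 mice (background 31.8%), and in IC 1, Pttg1 (background 35.0%). The macrophage markers summed to 6569 to 7674 CPM in DMSO Ova, 7136 to 8484 CPM in iBET Ova, 6325 to 7237 CPM in DMSO IC and 7741 to 8454 CPM in iBET IC. Lyz2 was the largest part of this sum (2613 to 4361 CPM over the libraries). Lyz2, Adgre1 and Mertk were higher with iBET in each mouse at either stimulus, and Fcgr1 was lower in each. The other markers had no such common direction.

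How many genes passed the test turned on whether the mouse was a term in the fit. Without it, edgeR called 1 of the 45 genes in Ova (Bub1b, lower, background 14.2%) and 0 in IC (background 15.8%), with 5 and 2 at an unadjusted p under 0.05. DESeq2 without the mouse called 4 and 3, all lower. The median log2 fold changes were -0.95 and -0.65, and 44 and 42 of the 45 values were below 0. With the mouse as a block, edgeR called 37 genes lower in Ova (background 17.9%) and 31 lower in IC (background 19.8%), and 0 higher in either (background 20.4% and 22.4%). The blocked medians were -0.92 and -0.61, close to those of the fit without a block. Leaving out the mouse A library of DMSO Ova from the blocked fit gave 37 lower and 1 higher in Ova and 34 lower in IC, and leaving out mouse C gave 25 and 12. The fold changes of the 45 genes that follow are from the blocked fit unless another is named, and "rose" and "fell" refer to it for these genes.

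**Figure D4:**
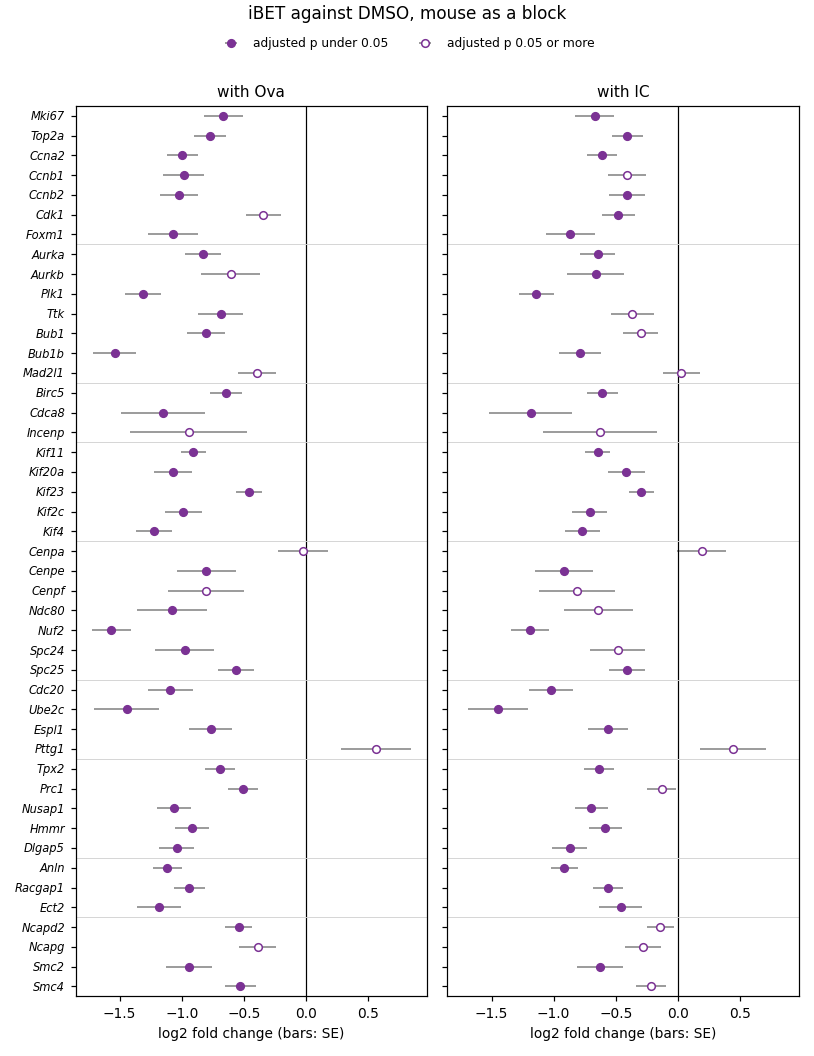
log2 fold change of iBET over DMSO (horizontal axis, bars are SE, mouse as a block) for each of the 45 genes in Ova and in IC, with filled symbols for an adjusted p under 0.05. Filled symbols number 37 in Ova and 31 in IC and all lie below 0, and Pttg1 lies at 0.56 and 0.44.

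Of the 7 genes grouped here, the cyclin genes, Cdk1, Foxm1, Mki67 and Top2a, 6 fell in Ova and 6 in IC. The level of Mki67 in mice A, B and C was 248, 225 and 499 CPM in DMSO Ova, 119.6, 158 and 361 CPM in iBET Ova, 199.8, 136 and 359 CPM in DMSO IC, and 90.4, 112 and 246 CPM in iBET IC. Each mouse was lower with iBET at either stimulus, but mouse C with iBET lay above mice A and B with DMSO, so the groups overlapped. Mki67 fell to 0.631 of its DMSO level in Ova (log2 -0.66, SE 0.16, adjusted p = 0.0062) and to 0.628 in IC (log2 -0.67, SE 0.16, adjusted p = 0.00519). Ccna2, the cyclin of S phase and mitotic entry, was at 41.1, 57.7 and 137 CPM in DMSO Ova, 23.2, 25.8 and 68.0 CPM in iBET Ova, 26.7, 46.0 and 119 CPM in DMSO IC, and 21.8, 27.7 and 69.6 CPM in iBET IC. Again each mouse was lower with iBET and the groups overlapped. Ccna2 fell to 0.502 of its level in Ova (log2 -0.995, SE 0.12, adjusted p = 6.62e-05) and to 0.654 in IC (log2 -0.61, SE 0.12, adjusted p = 0.00141). Top2a was at 216, 169 and 383 CPM in DMSO Ova, 95.1, 117 and 247 CPM in iBET Ova, 147, 126 and 324 CPM in DMSO IC, and 100.2, 117 and 219.8 CPM in iBET IC. It fell in Ova (log2 -0.77, SE 0.13, adjusted p = 0.000498) and in IC (log2 -0.41, SE 0.13, adjusted p = 0.0208), with overlapping groups. Foxm1, a transcription factor of G2 and mitosis genes, fell in both (log2 -1.07 and -0.87), and its Ova groups did not overlap. Ccnb1 fell in Ova (-0.99) and did not pass in IC (-0.41, adjusted p = 0.0506). Cdk1 did not pass in Ova (-0.34, adjusted p = 0.0693) and fell in IC (-0.48). Without the mouse A library of DMSO Ova, Cdk1 was called lower in Ova too (log2 -0.50, adjusted p = 0.0102), and Ccnb1 was called lower in IC (log2 -0.42, adjusted p = 0.03).

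Among the 7 mitotic kinases and checkpoint genes, 5 fell in Ova and 4 in IC. Bub1b, the gene of the checkpoint protein BubR1, was at 44.7, 33.9 and 63.8 CPM in DMSO Ova, 10.4, 11.1 and 30.1 CPM in iBET Ova, 21.3, 17.7 and 42.9 CPM in DMSO IC, and 10.4, 12.98 and 23.7 CPM in iBET IC. Its 3 iBET Ova values all lay below its 3 DMSO Ova values, and its IC groups overlapped. Bub1b fell to 0.344 of its DMSO level in Ova (log2 -1.54, SE 0.17, adjusted p = 2.95e-05) and to 0.580 in IC (log2 -0.79, SE 0.17, adjusted p = 0.00264). In the fit without a block its values were -1.48 (adjusted p = 0.0407) in Ova and -0.82 (adjusted p = 0.217) in IC. Plk1 was at 11.3, 15.8 and 45.4 CPM in DMSO Ova, 4.78, 5.51 and 20.0 CPM in iBET Ova, 8.00, 11.2 and 36.8 CPM in DMSO IC, and 4.38, 4.94 and 14.6 CPM in iBET IC. It fell to 0.403 and 0.454 of its DMSO level in Ova and IC. Aurka, a kinase of the spindle poles, also fell in both (-0.83 and -0.65). Bub1 and Ttk fell in Ova (-0.80 and -0.69) and did not pass in IC (-0.30 and -0.37). Aurkb, the kinase of the passenger complex, had -0.61 in Ova (adjusted p = 0.0623) and fell in IC (-0.66). Mad2l1 passed in neither (-0.39 and 0.03).

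The other passenger complex genes were Birc5, Cdca8 and Incenp, of which the first pair fell in both settings (-0.64 and -0.61 for Birc5, -1.15 and -1.19 for Cdca8). Without the mouse A library of DMSO Ova the Ova call of Cdca8 was lost (log2 -1.08, adjusted p = 0.056). Incenp was at 135, 40.8 and 73.3 CPM in DMSO Ova, 24.5, 30.3 and 70.4 CPM in iBET Ova, 63.5, 36.0 and 65.1 CPM in DMSO IC, and 25.8, 36.8 and 40.0 CPM in iBET IC. The mouse A library of DMSO Ova, the one rich in ribosomal RNA, was the highest of the 12 for Incenp. Incenp did not pass in Ova (log2 -0.94, SE 0.47, adjusted p = 0.156) or in IC (log2 -0.63, SE 0.46, adjusted p = 0.31), and without that library its Ova value was -0.44 (adjusted p = 0.358).

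All 5 kinesins fell in both settings. Kif11 was at 52.4, 66.6 and 135 CPM in DMSO Ova, 28.9, 33.6 and 73.9 CPM in iBET Ova, 37.9, 48.0 and 109.9 CPM in DMSO IC, and 26.4, 26.8 and 72.6 CPM in iBET IC. Every mouse was lower with iBET, and the groups overlapped through mouse C. Kif11 fell to 0.533 of its DMSO level in Ova (log2 -0.91, SE 0.10, adjusted p = 3.02e-05) and to 0.639 in IC (log2 -0.65, SE 0.10, adjusted p = 0.000269). Kif4, a chromosome-bound kinesin, fell by the most in Ova (-1.22 in Ova, -0.77 in IC), and Kif23, a motor of the central spindle, by the least (-0.46 and -0.30). Kif20a and Kif2c, a motor of the central spindle and a microtubule depolymerase, had -1.07 and -0.99 in Ova and -0.41 and -0.71 in IC.

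At the centromere and kinetochore, 5 of 7 genes fell in Ova and 3 of 7 in IC. The Ndc80 complex, which binds microtubule ends, is encoded by Ndc80, Nuf2, Spc24 and Spc25, and all 4 fell in Ova (-1.08, -1.57, -0.98 and -0.56). In IC Nuf2 and Spc25 fell (-1.19 and -0.41), and Ndc80 and Spc24 did not pass (-0.64 and -0.49). Nuf2 was at 26.2, 26.2 and 59.4 CPM in DMSO Ova, 6.95, 8.16 and 24.7 CPM in iBET Ova, 23.5, 21.6 and 52.7 CPM in DMSO IC, and 8.65, 11.8 and 22.3 CPM in iBET IC. Its Ova groups did not overlap. Cenpe, the gene of a kinetochore motor, was at 74.0, 38.0 and 81.9 CPM in DMSO Ova, 26.2, 29.997 and 52.0 CPM in iBET Ova, 52.4, 26.4 and 56.2 CPM in DMSO IC, and 17.4, 18.7 and 37.0 CPM in iBET IC. It fell in Ova (log2 -0.80, SE 0.24, adjusted p = 0.0227) and in IC (log2 -0.92, SE 0.24, adjusted p = 0.0112), with overlapping groups. Cenpf did not pass (-0.80 and -0.81, adjusted p = 0.068 and 0.0598). Without the mouse A library of DMSO Ova, Cenpf and Ndc80 were called lower in IC (log2 -0.85 and -0.68). Cenpa was at 24.1, 18.0 and 35.3 CPM in DMSO Ova, 30.2, 21.8 and 22.1 CPM in iBET Ova, 18.0, 16.0 and 31.0 CPM in DMSO IC, and 26.3, 18.8 and 27.8 CPM in iBET IC. Its changes were near 0 on the log2 scale in Ova (-0.02) and small in IC (0.19), with adjusted p = 0.944 and 0.452.

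Of the 4 genes that promote or restrain the parting of the sister chromatids, 3 fell in both settings and Pttg1 did not. Cdc20, the activator of the anaphase-promoting complex, had -1.09 in Ova and -1.02 in IC. Ube2c, the ubiquitin-conjugating enzyme of that complex, was at 6.16, 3.22 and 13.6 CPM in DMSO Ova, 2.24, 1.87 and 3.61 CPM in iBET Ova, 6.31, 3.74 and 11.2 CPM in DMSO IC, and 1.65, 1.84 and 4.55 CPM in iBET IC. It fell to 0.368 and 0.367 of its DMSO level, among the lowest ratios of the 45 genes, from low levels. Espl1 was at 6.68, 11.0 and 25.6 CPM in DMSO Ova, 5.71, 7.06 and 11.6 CPM in iBET Ova, 7.83, 12.2 and 24.2 CPM in DMSO IC, and 6.08, 8.33 and 14.4 CPM in iBET IC. Espl1 fell in Ova (log2 -0.77, SE 0.17, adjusted p = 0.00415) and in IC (log2 -0.56, SE 0.16, adjusted p = 0.0139). Pttg1, the gene of securin, which holds separase inactive until anaphase, was at 14.4, 6.75 and 5.64 CPM in DMSO Ova, 9.57, 10.0 and 13.9 CPM in iBET Ova, 7.83, 7.70 and 7.44 CPM in DMSO IC, and 10.6, 12.4 and 8.27 CPM in iBET IC. With iBET it was higher in mice B and C in Ova and in 3 of 3 mice in IC, where the groups did not overlap (background 26.3% higher). The Pttg1 values did not pass in Ova (log2 0.56, SE 0.28, adjusted p = 0.14) or IC (log2 0.44, SE 0.26, adjusted p = 0.2). Its count in the mouse A library of DMSO Ova was 28. In the blocked fit without that library Pttg1 was called higher in Ova (log2 0.83, SE 0.23, edgeR adjusted p = 0.0146).

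All 5 spindle genes fell in Ova and 4 in IC. Prc1, whose protein bundles the microtubules of the central spindle, was at 47.3, 47.1 and 105 CPM in DMSO Ova, 29.9, 33.6 and 77.1 CPM in iBET Ova, 25.5, 34.8 and 91.1 CPM in DMSO IC, and 28.9, 31.6 and 69.6 CPM in iBET IC. It fell in Ova (log2 -0.51, SE 0.12, adjusted p = 0.00586) and did not pass in IC (log2 -0.13, SE 0.12, adjusted p = 0.398), where mouse A was higher with iBET. Tpx2, Nusap1, Hmmr and Dlgap5, which help build or stabilize the spindle, fell with log2 values between -0.69 and -1.07 in Ova and between -0.58 and -0.87 in IC. All 3 cytokinesis genes fell in both. Racgap1, a subunit of centralspindlin, was at 32.9, 38.1 and 91.9 CPM in DMSO Ova, 19.4, 20.5 and 41.7 CPM in iBET Ova, 27.3, 26.4 and 78.2 CPM in DMSO IC, and 16.97, 21.996 and 48.3 CPM in iBET IC. Racgap1 fell in Ova (log2 -0.94, SE 0.13, adjusted p = 0.000105) and in IC (log2 -0.56, SE 0.12, adjusted p = 0.00266). Anln, the gene of anillin in the contractile ring, had -1.12 and -0.91, and Ect2, the activator of RhoA at the cleavage furrow, had -1.18 and -0.46. The Ova groups of Ect2 did not overlap.

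Of the 4 condensin genes, which compact chromosomes, 3 fell in Ova and 1 in IC. Smc4 was at 155, 122 and 192 CPM in DMSO Ova, 83.5, 99.0 and 143 CPM in iBET Ova, 118, 89.8 and 156 CPM in DMSO IC, and 84.3, 92.6 and 136 CPM in iBET IC. Smc4 fell in Ova (log2 -0.53, SE 0.12, adjusted p = 0.00519) and did not pass in IC (log2 -0.21, SE 0.12, adjusted p = 0.179), where mouse B was not lower with iBET. Smc2 was at 112, 80.7 and 140.4 CPM in DMSO Ova, 37.1, 47.9 and 96.2 CPM in iBET Ova, 72.8, 60.4 and 111 CPM in DMSO IC, and 34.9, 42.6 and 88.5 CPM in iBET IC. Smc2 fell in Ova (log2 -0.94, SE 0.19, adjusted p = 0.00238) and in IC (log2 -0.63, SE 0.18, adjusted p = 0.0179). Ncapd2 fell in Ova (-0.54) and did not pass in IC (-0.14), and Ncapg passed in neither (-0.39 and -0.28). Over all 45 genes, the DMSO and iBET groups did not overlap in Ova for 4, all lower (Foxm1, Bub1b, Nuf2 and Ect2, background 19.9%), and in IC for 0 lower (background 22.3%) and 1 higher (Pttg1). These genes are named after their values were seen.

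Within each mouse the summed level was also lower with the immune complex than with Ova, and with DMSO 7 single genes were called lower once the mouse was in the fit. The summed level in IC was 30.3%, 28.7% and 20.3% lower than in Ova in mice A, B and C with DMSO, and 7.98%, 9.88% and 15% lower with iBET. These comparisons share their libraries with the drug comparisons: IC over Ova with DMSO uses the DMSO libraries that are the reference of the drug in Ova and in IC, and IC over Ova with iBET uses the iBET libraries. With DMSO, 37 of the 45 genes were lower in 3 of 3 mice (background 22.5%), and with iBET 17 (background 19.4%). Of the 45, 0 were higher in 3 of 3 mice with DMSO (background 20.7%), and 4 were with iBET (Ccnb2, Bub1, Spc24 and Espl1, named after their values were seen, background 18.4%). The Ova and IC groups overlapped for all 45 genes, both with DMSO (background 7.47% lower and 7.80% higher) and with iBET (background 9.34% and 9.53%). Without a block edgeR called 0 of the 45 genes with DMSO (background 1.22%, of which 0.488% lower and 0.732% higher) and 0 with iBET (background 0.349%), and 0 had an unadjusted p under 0.05 in either. DESeq2 and limma without the mouse also called 0. The median log2 fold changes were -0.43 and -0.13, and 45 and 34 values were below 0.

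With the mouse as a block, 7 genes were called lower in IC with DMSO (background 1.27%), 0 higher (background 1.47%), and 0 with iBET (background 0.148%), and 27 and 7 had an unadjusted p under 0.05. The 7 were Bub1b (log2 -0.82, SE 0.17, adjusted p = 0.0226), the kinesins Kif20a (-0.68), Kif2c (-0.63) and Kif23 (-0.46), Nusap1 (-0.64), Ncapd2 (-0.53) and Anln (-0.46). Each was lower in 3 of 3 mice. These calls were few and moved with single libraries. Without the mouse A library of DMSO Ova, 2 were called (Nusap1 and Ncapd2). Without the mouse B library of DMSO Ova or of DMSO IC, 0 were called, and without the mouse C library of either, 1. The number was 4 without DMSO IC of mouse A or iBET Ova of mouse C, 3 without iBET IC of mouse C and 12 without iBET Ova of mouse A. Without all libraries of mouse A it was 20, and without those of mouse B or of mouse C it was 0. With iBET, leaving out mouse A gave 7 calls and leaving out its iBET Ova library gave 1.

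**Figure D5:**
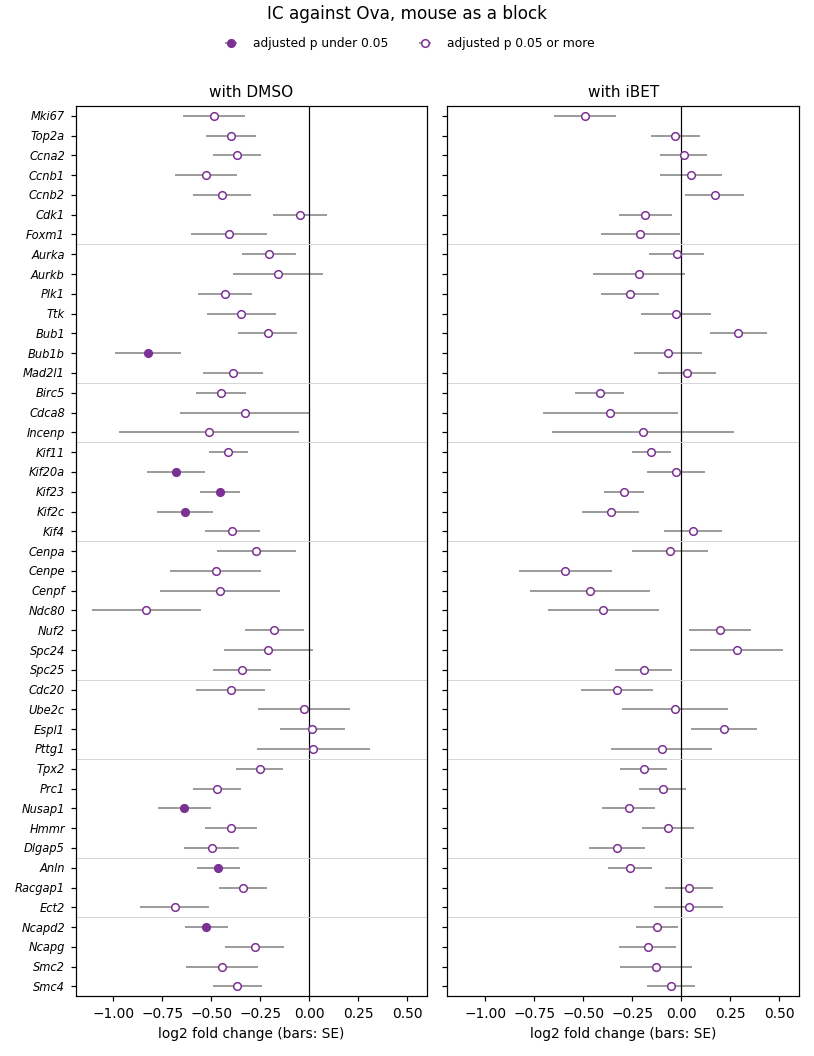
log2 fold change of IC over Ova (horizontal axis, bars are SE, mouse as a block) for each of the 45 genes with DMSO and with iBET, with filled symbols for an adjusted p under 0.05. Filled symbols number 7 with DMSO and 0 with iBET, and the values with DMSO lie below 0 for 43 of the 45 genes.

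Mki67 was lower in IC than in Ova in 3 of 3 mice with DMSO (log2 -0.48, SE 0.16, adjusted p = 0.149) and with iBET (log2 -0.49, SE 0.16, adjusted p = 0.255), without passing the test in either. Kif11 stood just outside the threshold with DMSO (log2 -0.41, SE 0.10, adjusted p = 0.0501). Not all genes followed this direction: Espl1, Ube2c and Pttg1 were each lower in 1 of 3 mice with DMSO, with values of 0.01, -0.03 and 0.02. Without the mouse A library of DMSO Ova these values were -0.07, -0.03 and 0.32.

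Whether the effect of IC differed between DMSO and iBET was asked by the interaction. edgeR called 0 of the 45 genes without a block and 0 with it (background 0 in both), and 0 and 11 had an unadjusted p under 0.05. DESeq2 called 0 in both fits. The median interaction over the 45 genes was 0.30 without and 0.28 with the block, where a value above 0 means a smaller decrease with IC under iBET, and equally a smaller decrease with iBET under IC. A difference between the settings was therefore not shown for any single gene.

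Related gene lists were read in the same fits, with calls given first without and then with the mouse as a block. Over all genes tested, iBET had 14.2% lower and 17.1% higher in Ova and 15.8% lower and 19.0% higher in IC without a block, and 17.9% and 20.4%, and 19.8% and 22.4%, with it. These shares are the background of the counts that follow. Of 81 other G2 and mitosis genes tested, 6 were lower and 2 higher with iBET in Ova without a block, and 41 and 2 with it. In IC these numbers were 5 and 3, and 33 and 3. The share called in this list was 9.88% in Ova and 9.88% in IC without a block, below the 31.3% and 34.8% of all genes, and 53.1% and 44.4% with it, against 38.3% and 42.1%. The medians without a block were -0.64 and -0.47, smaller in size than those of the 45 genes. Pbk, a mitotic kinase gene, had -1.98 in Ova without a block. Zwint and Mad1l1, genes of a kinetochore and a checkpoint protein, were higher in both (0.43 and 0.37, 0.76 and 0.58). Of 52 S phase and replication genes, 18 were lower and 1 higher in Ova without a block and 31 and 1 with it, and in IC 17 and 1, and 26 and 1. The share called was 36.5% and 34.6% without a block and 61.5% and 51.9% with it. Their medians without a block were -0.65 and -0.53. Dscc1, a cohesion factor of the replication fork, and Ung, which removes uracil from DNA, were lower in both without a block (-1.78 and -1.45, -1.58 and -1.55), while Slbp, which binds histone mRNA, was higher in both (0.74 and 0.74). Dscc1 and Ung were at low levels, 0.775 to 6.68 and 0.581 to 4.23 CPM over the libraries. The highest Dscc1 value was in the mouse A library of DMSO Ova. In this list 29 of 52 genes were called for mouse, with a median C minus A of 0.59, and among the 81 other G2 and mitosis genes 59 were, with a median of 1.18, against 5.55% of all genes called.

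Of 24 regulators of cell cycle transcription, 6 were lower and 3 higher in Ova without a block (10 and 4 with it), and 6 and 3 in IC (13 and 4 with it). Without a block the share called was 37.5% in each setting, near that of all genes. Myc was lower with iBET in each mouse at either stimulus. It was at 64.7, 61.5 and 65.7 CPM in DMSO Ova and 21.3, 23.2 and 13.5 CPM in iBET Ova. In IC it was at 127, 94.1 and 97.7 CPM with DMSO and 23.7, 27.4 and 14.5 CPM with iBET. E2f2, an activating E2F, was at 17.5, 17.3 and 32.0 CPM in DMSO Ova, 3.09, 4.19 and 7.67 CPM in iBET Ova, 11.1, 10.8 and 21.7 CPM in DMSO IC, and 2.78, 3.59 and 5.27 CPM in iBET IC. Its iBET values lay below its DMSO values at either stimulus, and it fell without a block (log2 -2.21, SE 0.42, adjusted p = 0.00213 in Ova, and -1.95, SE 0.42, adjusted p = 0.00414 in IC). The MuvB subunit gene Lin9 was lower in both (-0.83 and -0.95). Other MuvB subunit genes, named after their values were seen, did not follow it. In Ova, Lin54 was at 29.3, 28.9 and 42.6 CPM with DMSO and 42.9, 39.4 and 54.2 CPM with iBET. In IC it was at 25.8, 25.6 and 35.0 CPM with DMSO and 43.0, 45.5 and 53.8 CPM with iBET. Lin37 was higher with iBET in each mouse in Ova and in mice B and C in IC. Lin52 had no common direction over the mice. E2f5 was higher with iBET in each mouse at either stimulus. It was at 10.3, 9.74 and 8.70 CPM in DMSO Ova and 18.6, 21.1 and 19.2 CPM in iBET Ova. In IC it was at 10.4, 7.70 and 7.15 CPM with DMSO and 18.5, 20.7 and 17.5 CPM with iBET. Nfya, a subunit of the CCAAT-binding factor, was higher in both (0.85 and 0.75), and Nfyc, another subunit, named after its value was seen, was lower (-0.51 and -0.49). Of 6 tested genes of cyclin-dependent kinase inhibitors, 3 rose in both settings without a block (50.0%). Cdkn1a, the gene of p21, was at 105, 165 and 133 CPM in DMSO Ova, 304, 255 and 216 CPM in iBET Ova, 136, 206 and 175 CPM in DMSO IC, and 397, 416 and 366 CPM in iBET IC. The iBET values all lay above the DMSO values (log2 0.93, SE 0.18, adjusted p = 0.00228 in Ova, and 1.19, SE 0.18, adjusted p = 0.00037 in IC). Cdkn2b, the gene of p15, was at 1.03, 1.53 and 0.829 CPM in DMSO Ova, 5.79, 4.08 and 5.30 CPM in iBET Ova, 0.926, 0.660 and 0.953 CPM in DMSO IC, and 5.07, 6.20 and 7.07 CPM in iBET IC. Without a block it rose from low levels (log2 2.11, SE 0.30, adjusted p = 0.000214 in Ova, and 2.81, SE 0.29, adjusted p = 1.82e-05 in IC). Cdkn1b, the gene of p27, rose by less (0.51 and 0.67). With a block, Cdkn2c, named after its value was seen, was also called, lower, in both settings (-0.55 and -0.51). For these inhibitors the mouse term was called in 1 of 6, with a median C minus A of 0.06. The IC contrasts called 0 genes of these 4 lists without a block, and with it, in DMSO, 6 other G2 and mitosis genes and 1 transcription regulator, all lower (background 1.27%).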

How the data were processed

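Counts of reads per gene in 12 libraries were deposited by the authors. Per the labels cells were sorted into lysis buffer, whereas the study's methods describe lysis in culture and no sort. RNA was extracted and made into libraries with a SMARTer pico kit, and reads were handled with CASAVA, FastQC and Trim Galore, aligned to mm10 with HISAT2 and counted with featureCounts. Tool versions, the annotation, strand use and the handling of multiply mapped reads are not given in the sources used here. A second deposited table holds a normalized signal, equal to the counts divided by DESeq2 size factors, and entered only 1 alternative fit.

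Counts were analysed in R 4.3.3 with edgeR 4.0.16 (filterByExpr with a minimum count of 10, TMM, robust quasi-likelihood test, Benjamini-Hochberg adjustment over 11468 genes), in 1 fit of 4 groups of 3 libraries. SE was taken from the F statistic, as the size of the log2 fold change over the root of F. Each library was tied by the labels to mouse A, B or C, which pairs the libraries, and the fit with mouse as a block is given beside the main one. The correlation of deviations from group means was -0.07 to 0.54 over 18 same-mouse pairs (median 0.26). Over 36 other pairs it was -0.50 to 0.27 (median -0.13), so the ranges overlapped. Deviations from a mean of 3 libraries tie the values of both kinds of pair to each other. Differences per mouse are on log2 CPM with a prior count of 2. DESeq2 1.42.0, limma 3.58.1 (pseudocount 1) and sva 3.50.0 gave alternatives. The procedure was tested on simulated counts.

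The 45 genes and all lists were chosen with earlier results of these data known. Values in every library are given for the 8 members with the highest mean CPM, members called in the main fit and the highest of each role, and of the other lists the called genes with the 3 largest rises and falls may be named. Other genes were named after their values were seen. The precision of a value is limited by 3 mice per group and, in the mouse A library of DMSO Ova, by 1.77 M counts outside Rn45s.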

Additional observations from a re-analysis of the deposited data

Results flagged for a closer look

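For 2 of the 45 genes (4.44%), IC minus Ova was below 0 in 3 of 3 mice with DMSO and above 0 in 3 of 3 mice with iBET, against 1.06% of all genes tested. For Ccnb2, a B-type cyclin, IC minus Ova was -0.71, -0.23 and -0.49 on the log2 CPM scale in mice A, B and C with DMSO and 0.08, 0.43 and 0.04 with iBET. The interaction was 0.67 (SE 0.95, edgeR adjusted p = 1.00) without a block and 0.61 (SE 0.21, edgeR adjusted p = 1.00) with it. For Bub1, a checkpoint kinase, the differences were -0.28, -0.38 and -0.07 with DMSO and 0.13, 0.30 and 0.41 with iBET, and the interaction was 0.57 (SE 0.82, edgeR adjusted p = 1.00) without a block and 0.50 (SE 0.21, edgeR adjusted p = 1.00) with it. The mouse-by-mouse difference in direction was not tested by itself, and the edgeR interaction called neither gene.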

How the results depend on the processing

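With the replicate block the genes called were 7 for IC against Ova in DMSO, 37 for iBET in Ova and 31 for iBET in IC, in place of 0, 1 and 0. The block together with no mouse A library of DMSO Ova gave 2, 38 and 34. Without a block, DESeq2 called 4 in Ova (Bub1b, Ube2c, Cdca8 and Foxm1) and 3 in IC (Ube2c, Cenpe and Cdca8), no filter gave 0 in Ova, 1 surrogate variable gave 3 in Ova (Foxm1 and Espl1 lower, Pttg1 higher) and 4 in IC (Foxm1, Espl1 and Aurka lower, Pttg1 higher), and normalized counts in limma gave 2 in Ova (Nuf2 and Bub1b). With the block, DESeq2 called 11 for IC against Ova in DMSO. Leaving out libraries or mice gave, without a block, 0 to 23 for iBET in Ova and 0 to 12 for iBET in IC, both highest without mouse C. The Ova number was 0 without DMSO Ova of mouse C, iBET Ova of mouse A or B, DMSO IC of mouse A, or mouse B, 3 without DMSO IC of mouse C and 10 without iBET Ova of mouse C. The IC number was 1 without DMSO Ova of mouse B or C and 3 without DMSO IC of mouse B or iBET IC of mouse C. With the block the ranges were 25 to 41 in Ova, 12 to 34 in IC, 0 to 20 for IC against Ova in DMSO and 0 to 7 in iBET. The interaction stayed at 0 in all 15 such fits. Without a block the iBET effect in IC ranged from -0.87 to 0.092 for Top2a, -1.37 to 0.12 for Ccna2 and -1.18 to 0.10 for Racgap1, each above 0 only without DMSO IC of mouse C. The cause of these changes was not tested. The lone library rich in Rn45s and 3 mice per group limit what can be told. The interaction fitted on the compared groups alone, and the block in sva and limma, were not run.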
